A study of Mus musculus with 12 samples.

Results

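The small nucleolar RNA (snoRNA) genes described here are the rows of the gene count table whose symbol begins with Snora or Snord. There were 141 such genes among 55450, of which 42 were Snora genes, the H/ACA class, and 99 were Snord genes, the C/D class. Every gene that met the symbol rule was kept, whatever its count. The RNA came from donor-derived mouse bone marrow cells that were negative for lineage markers and positive for the receptor Kit (Lin- ckit+), a gate that holds stem and progenitor cells. These cells were sorted out of the marrow of mice that had received a competitive transplant, in which donor cells share the recipient with competitor cells. The donors had 4 genotypes with 3 libraries each: WT, Tet2 KO (written Tet2KO), Id1 KO (Id1KO) and Tet2 KO + Id1KO (dKO). Tet2 encodes an enzyme that oxidises methylated cytosine in DNA, and Id1 encodes an inhibitor of basic helix-loop-helix transcription factors. The knockout alleles, the age of the mice and the number of animals behind each library are not given in the labels, and all 4 groups share the transplant setting. The 3 libraries of a genotype carry 1 sample number in their titles with different suffixes. Their p-values therefore measure only the spread between these libraries, which may be technical.

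Small nucleolar RNAs guide chemical changes of ribosomal RNA. H/ACA snoRNAs pair with a target to place a pseudouridine, made by the enzyme Dkc1 (dyskerin), and C/D snoRNAs place a 2'-O-methyl group, made by Fbl (fibrillarin). Most mammalian snoRNAs lie in introns of host genes and are trimmed out of the spliced intron, and some of them act in the cutting and folding of the ribosomal RNA precursor instead of its modification.

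The sequences of 6 of the more abundant members are shown because the class names rest on short boxes near their ends and because 2 of them are almost the same. They are GENCODE M21 transcripts on the GRCm38 (mm10) build, 5' to 3' on the gene's own strand. Capitals mark the ACA that ends 3 bases before the end of an H/ACA RNA, and the C box (TGATGA) and D box (CTGA) of a C/D RNA. Snora73a lies at chr4:132352775-132352979 and Snora73b at chr4:132352322-132352526, both on the minus strand inside Snhg3 and Rcc1. Snora78 lies at chr17:24719676-24719803 (minus, in Snhg9). Snord17 lies at chr2:144265979-144266216 (minus, in an intron of Snx5), Snord15b at chr7:99479563-99479707 (minus, in Rps3) and Snord22 at chr19:8725866-8725991 (plus, in Snhg1).
Snora73a: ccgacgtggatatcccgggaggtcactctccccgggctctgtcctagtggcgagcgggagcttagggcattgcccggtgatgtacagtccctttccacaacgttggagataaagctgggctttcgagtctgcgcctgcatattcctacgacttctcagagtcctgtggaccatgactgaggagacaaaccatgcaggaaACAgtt
Snora73b: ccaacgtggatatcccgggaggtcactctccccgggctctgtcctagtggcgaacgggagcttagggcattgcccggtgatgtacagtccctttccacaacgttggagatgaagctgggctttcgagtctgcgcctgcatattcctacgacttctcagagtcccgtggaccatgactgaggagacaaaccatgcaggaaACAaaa
Snora78: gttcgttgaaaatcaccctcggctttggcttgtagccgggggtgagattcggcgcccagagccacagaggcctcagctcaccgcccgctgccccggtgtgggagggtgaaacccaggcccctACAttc
Snord17: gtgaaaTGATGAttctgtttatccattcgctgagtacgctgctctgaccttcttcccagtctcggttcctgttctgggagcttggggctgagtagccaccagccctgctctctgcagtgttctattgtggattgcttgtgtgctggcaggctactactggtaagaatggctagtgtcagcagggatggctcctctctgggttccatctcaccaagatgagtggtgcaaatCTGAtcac
Snord15b: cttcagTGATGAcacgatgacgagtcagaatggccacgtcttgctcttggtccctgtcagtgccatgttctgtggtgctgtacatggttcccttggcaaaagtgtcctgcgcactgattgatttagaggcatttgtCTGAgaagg
Snord22: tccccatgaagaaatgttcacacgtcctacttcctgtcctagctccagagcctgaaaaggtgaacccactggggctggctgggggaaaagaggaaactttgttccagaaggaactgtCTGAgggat
Snora73a and Snora73b are the same length and share 198 of 205 bases. Counted from the 5' end, with the base of Snora73a first, they differ by G3A, G54A, A111G, T164C, G203A, T204A and T205A. Reads from the shared stretches cannot be assigned to 1 of the 2 genes by sequence, so each value of these genes depends on how the authors' program divided such reads. The terminal ACA was present in 35 of 42 H/ACA genes (83.3%), in 0 of 99 C/D genes and in 2.45% of the 141515 annotated transcripts of at least 60 nt. The D box within the last 12 bases was present in 86 of 99 C/D genes (86.9%), in 3 of 42 H/ACA genes (7.14%) and in 5.77% of all these transcripts. The C box within the first 15 bases was present in 64 of 99 C/D genes (64.6%) and in 0 H/ACA genes, against 0.518% of these transcripts. Only the transcript's own strand was searched and only these letters were counted, so a variant box, as in Snord22, was not found.

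The 2 classes differed in how many of their genes could be measured. Of the 42 H/ACA genes, 39 had a count in at least 1 library and 17 passed the filter on low counts. Of the 99 C/D genes, 46 had any count and 6 passed. A further 56 genes, 3 H/ACA and 53 C/D, were listed at 0 in all 12 libraries, and 62 genes had some counts but too few to test. Their annotated lengths differed as well, with 121 to 205 nt (median 132.5) for H/ACA and 64 to 238 nt (median 84) for C/D. Of 94 C/D genes shorter than 120 nt, 41 had any count and 1 was tested, whereas 5 of 5 longer C/D genes were tested. The 94 short C/D genes held 483.8 estimated counts over all 12 libraries, the 5 longer ones 11710 and the 42 H/ACA genes 70620. The plot of length against count shows these groups. The 23 tested genes are thus mainly the H/ACA class and the longest C/D genes, and the data say little about the typical short C/D snoRNA.

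**Figure D1:**
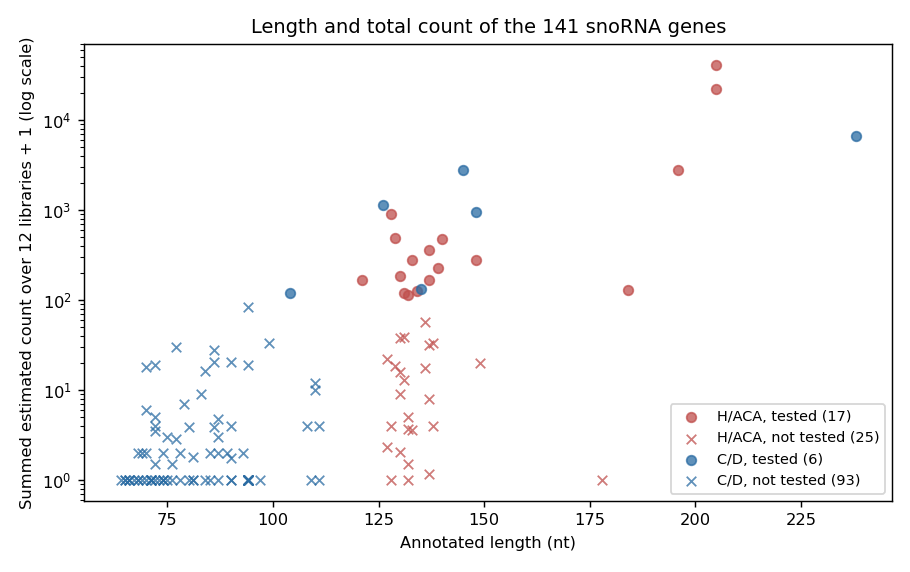
Annotated length (nt) against the estimated count summed over the 12 libraries plus 1 (log scale) for the 141 snoRNA genes; filled circles were tested and crosses were not, with H/ACA in red and C/D in blue. The tested genes begin at 104 nt, and 94 C/D genes lie below 120 nt, where 1 was tested.

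Each library held between 15706407 and 19959183 estimated counts over all genes. All 12 pairs of libraries of 1 genotype differed beyond sampling noise. Their median chi-square value, on a squared scale, was 1.18 to 2.09 times that of sampling. For the 54 pairs of different genotypes it was 2.9 to 5.95 times. The gene-level counts did not bear out the labels: Tet2 was 130 CPM in libraries labelled Tet2KO against 99.3 CPM in WT, and Id1 was 3.96 CPM in libraries labelled Id1KO against 1.47 CPM in WT. Id1 was also above WT in Tet2KO (3.86 CPM) and in dKO (3.93 CPM). A count over a whole gene does not see a deleted exon, and directions below are those of the libraries as labelled. The 6 progenitor markers, mainly Mpo (9910 CPM in WT), summed to 11600 CPM in each WT library, 12800 to 13000 (Tet2KO), 9690 to 10400 (Id1KO) and 9600 to 10400 (dKO). Against WT, 2 of 6 were lower and 4 higher in Tet2KO, 4 lower and 1 higher in Id1KO, and 5 lower and 0 higher in dKO. Over all genes tested, 32.8%, 15% and 19.2% were called in either direction in these comparisons. The 4 stroma and endothelium markers, mainly Pecam1, summed to 109 to 110 CPM (WT), 113 to 119 (Tet2KO), 87.3 to 93.4 (Id1KO) and 97.0 to 104 (dKO). The 3 T cell markers lay at 0 to 0.571 CPM. The 11 erythroid markers, mainly Car1 (493 CPM in WT), summed to 671 to 709 CPM in WT, 377 to 382 in Tet2KO, 739 to 753 in Id1KO and 638 to 652 in dKO. The sum hides the single genes: in dKO against WT 5 of the 11 were higher and 1 lower, with a median log2 change of 0.50. In the same comparison 19.2% of all genes tested were called in either direction. The part of these markers' cells in the results was not tested. Genes for small structural RNAs outside the mitochondrial genome took 8.63% to 8.88% of the counts in the WT libraries and 5.74% to 6.66% in the other 9. This share, like the H/ACA sum given next, was highest in WT, whereas the C/D sum differed by 0.0 on the log2 scale between Tet2KO and WT. Its part in the differences of snoRNA genes was not tested.

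The H/ACA sum was highest in WT, whereas the C/D sums of WT and Tet2KO overlapped and Id1KO was lowest. Levels are counts relative to the scaled size of the library (CPM), summed over all members of a class whether tested or not. The H/ACA sum was 465, 438 and 416 CPM in the 3 WT libraries, 344, 309 and 317 in those labelled Tet2KO, 261, 250 and 286 in those labelled Id1KO and 282, 272 and 295 in those labelled dKO. All 3 WT libraries lay above all 9 others, and the Id1KO and dKO libraries overlapped. The class mean was 440 ± 24.4 CPM (SD, n = 3) in WT, so that the log2 difference from WT was -0.44 for Tet2KO, -0.73 for Id1KO and -0.63 for dKO. The C/D sum was 69.5, 62.5 and 61.7 CPM for WT, 66.1, 63.6 and 63.7 for Tet2KO, 42.1, 41.1 and 48.7 for Id1KO and 51.3, 58.6 and 56.1 for dKO. The Id1KO libraries were the lowest and did not overlap with any other genotype, and the WT and Tet2KO libraries overlapped. The C/D log2 difference from WT was 0.0 for Tet2KO, -0.55 for Id1KO and -0.22 for dKO. As a result the ratio of H/ACA to C/D was 6.81 ± 0.168 for WT, 5.02 ± 0.175 for Tet2KO, 6.05 ± 0.165 for Id1KO and 5.13 ± 0.444 for dKO (SD, n = 3). Without Snora73a and Snora73b the ratio was 0.795 for WT, 0.465 for Tet2KO, 0.562 for Id1KO and 0.468 for dKO. Few genes make up each sum. In WT, Snord17 held 55.1% and Snord15b 23.1% of the C/D counts, and Snora73a and Snora73b held 59.2% and 29.1% of the H/ACA counts. These sums are descriptions without a test, and the 3 comparisons with WT share the same WT libraries. Fewer cells of a type that holds much of a snoRNA and less of it per cell cannot be told apart in bulk RNA.

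**Figure D2:**
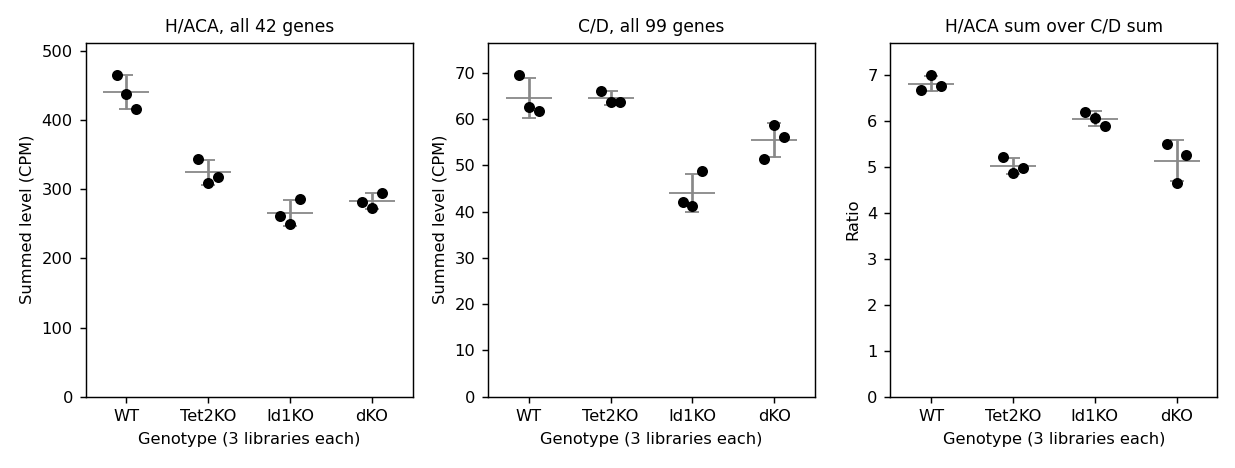
Summed level in CPM of the 42 H/ACA genes (left) and the 99 C/D genes (middle), and the ratio of the sums (right), in the 4 genotypes. Points are libraries, bars are the mean ± SD of 3; the WT libraries of the H/ACA panel lie at 416 to 465 CPM, above the other 9, and the C/D panel has its lowest values, 41.1 to 48.7 CPM, in Id1KO.

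Snora73a and Snora73b, copies of the H/ACA RNA also called U17 that acts in the cutting of the ribosomal RNA precursor, dominated their class. In WT they held 59.2% and 29.1% of the H/ACA counts, and in dKO 55.3% and 35.6%. Per length they were also the most abundant members, at 938 and 502 CPM per kb over the 12 libraries, followed by the C/D genes Snord17 at 132 and Snord15b at 89.9, and by Snora74a at 65.1. Snora73a was 274, 259 and 247 CPM for WT, 207, 184 and 190 for Tet2KO, 156, 148 and 172 for Id1KO and 158, 153 and 159 for dKO. WT stood above every other library, Tet2KO came next without overlap, and Id1KO and dKO overlapped. It fell by 25.5% in Tet2KO (log2 -0.43 ± 0.047 SE, edgeR quasi-likelihood test with Benjamini-Hochberg adjusted p = 8.61e-07), by 39% in Id1KO (log2 -0.71 ± 0.048, adjusted p = 2.26e-09) and by 39.8% in dKO (log2 -0.73 ± 0.048, adjusted p = 1.23e-09). Snora73b was 136, 128 and 120 CPM for WT, 105, 94.7 and 99.5 for Tet2KO, 80.4, 78.5 and 88.5 for Id1KO and 98.6, 94.6 and 109 for dKO. Its WT libraries were again the highest, but here dKO lay above Id1KO without overlap. Against WT its log2 change was -0.36 ± 0.053 (Tet2KO), -0.64 ± 0.054 (Id1KO) and -0.35 ± 0.053 (dKO) (adjusted p at most 9.21e-05 in edgeR). Between dKO and Tet2KO the copies parted, with -0.31 for Snora73a and 0.01 for Snora73b, and their counts added together differed by -0.19. Added together, they differed from WT by -0.40 in Tet2KO, -0.69 in Id1KO and -0.59 in dKO. Gm17300, annotated on the opposite strand of both genes, had 4 counts over the 12 libraries.

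Snora74a, the H/ACA RNA also called U19, had the largest change of the tested members in Tet2KO and in Id1KO. It lies at chr18:35557032-35557227 on the plus strand. It was 24.9, 23.8 and 23.7 CPM for WT, 8.82, 8.34 and 8.08 for Tet2KO, 8.62, 7.6 and 9.35 for Id1KO and 9.7, 9.64 and 10.5 for dKO. WT was the only high group, and the 9 other libraries spanned 7.6 to 10.5. It fell by 65.2% in Tet2KO (log2 -1.52 ± 0.077, adjusted p = 1.22e-11 in edgeR), by 64.7% in Id1KO (log2 -1.50 ± 0.076, adjusted p = 2.86e-11) and by 58.9% in dKO (log2 -1.28 ± 0.076, adjusted p = 2.48e-10). The whole of its sequence is also part of an exon of the overlapping gene AC121821.1, so reads from it can be counted for either gene. AC121821.1 itself differed from WT by -0.35, -0.22 and -0.23 in the 3 genotypes. The counts of both genes added together differed by -0.58 in Tet2KO, -0.46 in Id1KO and -0.44 in dKO, a smaller change in the same direction.

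Snora78, at 7.62, 5.93 and 5.57 CPM for WT, 4.9, 4.17 and 3.66 for Tet2KO, 3.24, 3.02 and 3.58 for Id1KO and 2.22, 2.51 and 3.9 for dKO, was also highest in all 3 WT libraries. It fell by 33.7% in Tet2KO, by 48.6% in Id1KO and by 54.6% in dKO, with adjusted p = 0.00883, 0.000605 and 0.000104 in edgeR; the first became 0.0681 without WT replicate 1. Snora78 is antisense to Rps2, and the strand setting of the authors' counting is not given in the sources used here. The fifth most abundant H/ACA member was Snora44 in Snhg12, at 3.21, 2.94 and 2.81 CPM in WT against 1.92, 2.13 and 1.05 in Id1KO and 2.35, 1.26 and 1.77 in dKO. WT lay above both without overlap, with log2 changes of -0.81 ± 0.23 (adjusted p = 0.0214) and -0.74 ± 0.23 (adjusted p = 0.0299) in edgeR. In Tet2KO, at 2.14, 3.22 and 2.53 CPM, it overlapped with WT (log2 -0.18 ± 0.21, adjusted p = 0.56). Together the H/ACA genes other than Snora73a and Snora73b summed to 51.3 ± 3.07 CPM for WT, 30.0 ± 1.91 for Tet2KO, 24.7 ± 1.7 for Id1KO and 25.8 ± 1.43 for dKO (SD, n = 3). Much of this difference is Snora74a alone, at a mean of 24.2 CPM for WT, 8.41 for Tet2KO, 8.52 for Id1KO and 9.93 for dKO.

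**Figure D3:**
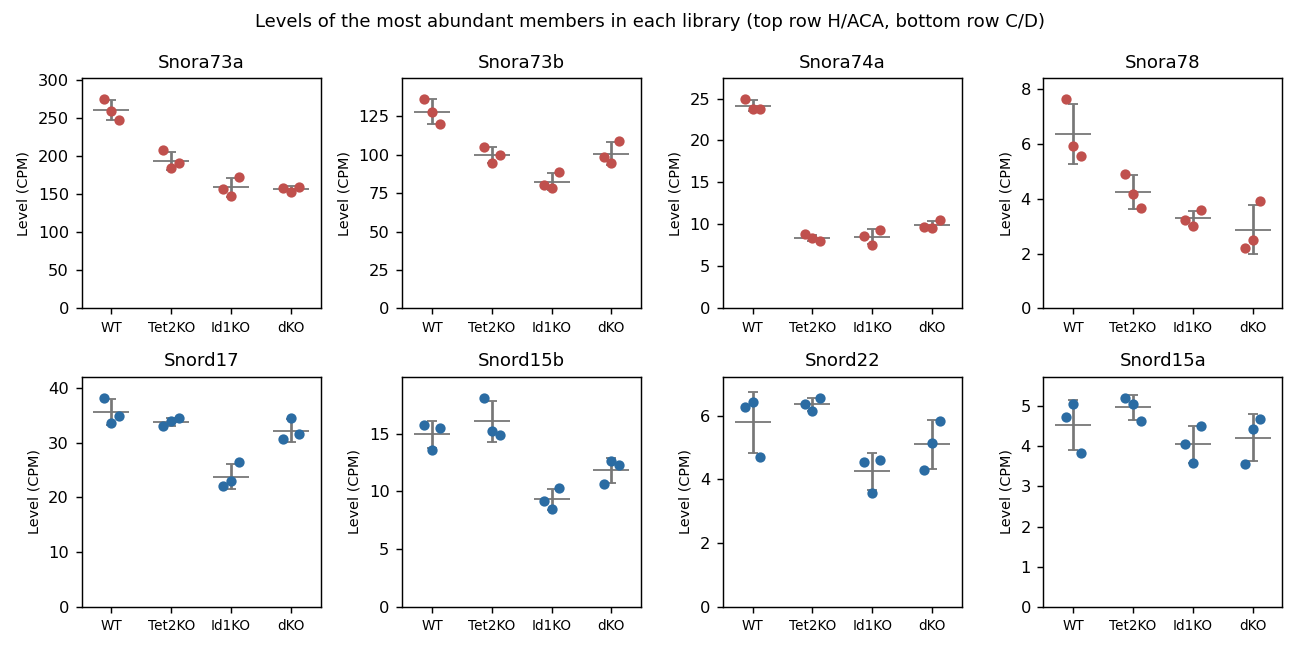
Level in CPM of 4 H/ACA genes (top, red) and 4 C/D genes (bottom, blue) in each library, with the mean ± SD of the 3 libraries of a genotype; every axis starts at 0. The 4 H/ACA genes are highest in the 3 WT libraries, as in Snora74a at 23.7 to 24.9 CPM against 7.6 to 10.5 in the other 9.

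Among the C/D genes, Snord17 and Snord15b were low in Id1KO and overlapped with WT in Tet2KO. Snord17 was 38.2, 33.6 and 34.9 CPM for WT, 33, 34 and 34.4 for Tet2KO, 22, 23 and 26.4 for Id1KO and 30.6, 34.5 and 31.5 for dKO. Only the Id1KO libraries stood apart from WT, and they lay below all 9 others. It fell by 33.1% in Id1KO (log2 -0.58 ± 0.066, adjusted p = 4.67e-06 in edgeR), while the log2 difference from WT was -0.07 ± 0.064 in Tet2KO (adjusted p = 0.423) and -0.14 ± 0.064 in dKO (adjusted p = 0.138). Snord15b, a guide of the U15 family, was 15.7, 13.6 and 15.5 CPM for WT, 18.1, 15.2 and 14.9 for Tet2KO, 9.17, 8.48 and 10.3 for Id1KO and 10.6, 12.6 and 12.3 for dKO. WT and Tet2KO overlapped, and both groups without Id1 by label lay below them. It fell by 37.4% in Id1KO (adjusted p = 8.15e-05) and by 20.4% in dKO (adjusted p = 0.0203) in edgeR. Its sequence is part of an exon of a transcript of the ribosomal protein gene Rps3, which had a mean level of 1630 CPM, so a small part of the reads of Rps3 would equal the whole count of Snord15b, and the counts of both added together differed from WT by -0.03 in Id1KO. Snord22 (U22), known for its part in processing of the small subunit RNA, was 6.27, 6.44 and 4.7 CPM for WT, 6.37, 6.14 and 6.57 for Tet2KO, 4.56, 3.59 and 4.62 for Id1KO and 4.31, 5.15 and 5.85 for dKO. It was called lower in Id1KO alone (log2 -0.45 ± 0.14, adjusted p = 0.038 in edgeR), where its highest library lay just under the lowest WT library. Snord15a, the second U15 copy in Rps3, ranged from 3.55 to 5.21 CPM over the 12 libraries and was called in no comparison. Snord13, which guides acetylation of the small subunit RNA, and Snord118 (U8), needed for processing of the large subunit RNA, were at 3 to 19 counts a library and were called in no comparison either.

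In Tet2KO against WT, 5 of 23 tested snoRNA genes were lower and 0 were higher, beside 16.2% of all 14346 genes tested called lower and 32.8% called in either direction. All 5 were H/ACA genes: Snora74a, Snora17 (log2 -0.94 ± 0.34, adjusted p = 0.0391 in edgeR), Snora78, Snora73a and Snora73b. As a share, 21.7% of the members were called lower, which is near the background, so the count itself does not set the members apart. The median log2 change was -0.38 over the 17 H/ACA genes and 0.12 over the 6 C/D genes, against -0.0028 for all genes tested. Snora17, at 0.368 to 0.539 CPM in Tet2KO and 0.702 to 1.09 in WT, rests on 6 to 21 counts a library, and its call was lost in 6 of 12 fits that left out 1 library (adjusted p up to 0.177).

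In Id1KO against WT, 13 of 23 members were lower and 0 higher, beside 7.77% of all genes tested called lower and 15% in either direction. All 23 had a negative log2 change, with a median of -0.73 over the H/ACA genes and -0.49 over the C/D genes, against -0.01 for all genes tested. The 13 were 10 of the 17 H/ACA genes and 3 of the 6 C/D genes. Snora74a, Snora17 (log2 -1.31 ± 0.35, adjusted p = 0.015 in edgeR) and Snora57 (log2 -1.18 ± 0.29, adjusted p = 0.00948) had the largest changes. Snora57 was 2.13, 1.8 and 1.73 CPM in WT and 0.879, 0.677 and 0.935 in Id1KO. The groups did not overlap, and the highest count in Id1KO was 17. Snora7a in Rpl32 (log2 -0.60 ± 0.18, adjusted p = 0.032), Snora43 of 139 nt (log2 -1.09 ± 0.34, adjusted p = 0.0345) and Snora61 in Snhg12 (log2 -0.99 ± 0.32, adjusted p = 0.0416) completed the H/ACA calls. Of these, Snora61 overlapped between the groups and was lost in 9 of 12 fits without 1 library (adjusted p up to 0.192). Added to the genes that share their sequence, counts differed by -0.46 for Snora44 and for Snora61, -0.14 for Snord22 and -0.04 for Snora7a. For Snora57 and Snora43 the added counts differed by -1.35 and -0.91.

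In dKO against WT, 9 of 23 members were lower and 0 higher, beside 8.97% of all genes tested called lower and 19.2% in either direction. They were 8 H/ACA genes and Snord15b, and again all 23 changes were negative, with medians of -0.73 (H/ACA) and -0.26 (C/D). Besides the genes above, Snora61 (log2 -1.30 ± 0.34, adjusted p = 0.0107 in edgeR), Snora21 in Rpl23 (log2 -1.10 ± 0.33, adjusted p = 0.025) and Snora70 in Rpl10 (log2 -1.07 ± 0.27, adjusted p = 0.00716) were lower. Snora70 was 2.28, 2.11 and 1.89 CPM for WT, 2.45, 1.79 and 1.99 for Tet2KO, 1.1, 1.87 and 1.6 for Id1KO and 1.33, 0.539 and 1.12 for dKO. WT and Tet2KO overlapped, and the dKO libraries lay below both. Added to the genes that share their sequence, counts differed by -0.14 for Snora70, -0.54 for Snora44 and for Snora61, and -0.09 for Snord15b. For Snora21 the added counts differed by -1.10.

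**Figure D4:**
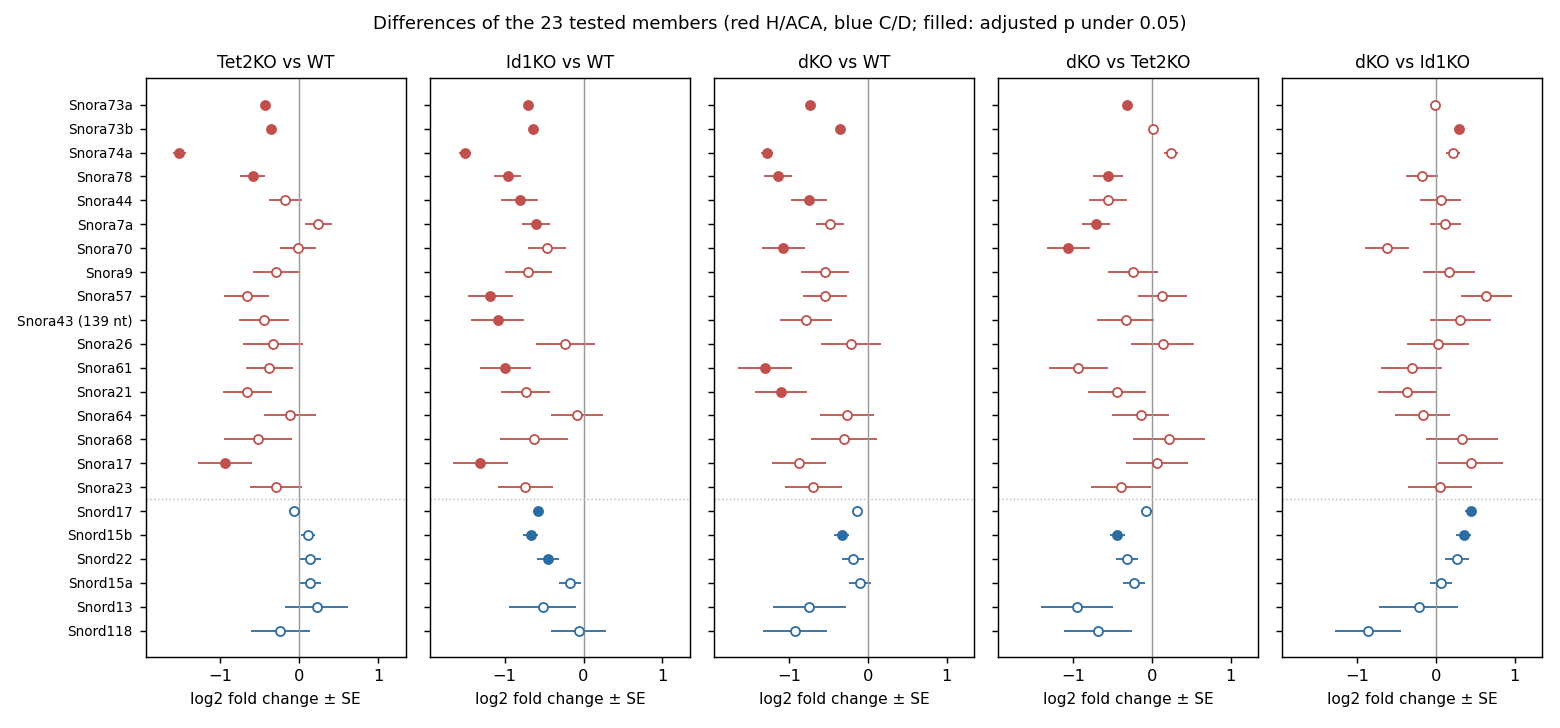
Log2 fold change ± SE of the 23 tested members in 5 comparisons, H/ACA (red) above the dotted line and C/D (blue) below; filled points have an adjusted p under 0.05 in edgeR. In the comparisons of Id1KO and dKO with WT all 23 points lie below 0, and in Tet2KO against WT 4 of 6 C/D points lie above 0.

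The loss of Id1 by label was also compared within Tet2 status. In dKO against Tet2KO, 5 of 23 members were lower and 0 higher, beside 13.4% of all genes tested called lower and 26.4% in either direction. They were Snora73a (log2 -0.31), Snora78 (log2 -0.55), Snora7a (log2 -0.71 ± 0.18, adjusted p = 0.00643 in edgeR), Snora70 (log2 -1.06 ± 0.27, adjusted p = 0.0067) and Snord15b (log2 -0.44 ± 0.096, adjusted p = 0.00201). Snora7a was 3, 3.1 and 2.69 CPM in Tet2KO and 1.9, 1.86 and 1.59 in dKO, without overlap. The call of Snora78 overlapped between the groups and was lost in 5 of 12 fits without 1 library (adjusted p up to 0.172). In dKO against Id1KO, 3 of 23 were higher and 0 lower, beside 10.6% of all genes tested called higher and 19.3% in either direction. These were Snord17 (log2 0.44 ± 0.068, adjusted p = 0.000101 in edgeR), Snord15b (log2 0.35 ± 0.1, adjusted p = 0.0229) and Snora73b (log2 0.29 ± 0.056, adjusted p = 0.000955). Its copy Snora73a was at -0.02 (adjusted p = 0.85), the counts of both added together differed by 0.09, and with the copies as 1 gene 2 members were called. The added counts of Snord15b and Rps3 differed by -0.03 in dKO against Tet2KO and by -0.06 in dKO against Id1KO.

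A test of the difference between the change with Id1 loss in the Tet2KO background and the change in the WT background (the interaction) called 5 of 23 members, all positive, beside 7.46% of all genes tested called positive and 14.5% in either direction. For Snora74a the change was 0.24 in the Tet2KO background and -1.50 in the WT background, a difference of 1.75 ± 0.12 (adjusted p = 2.32e-09 in edgeR). For Snora73b the changes were 0.01 and -0.64 (difference 0.65 ± 0.078, adjusted p = 8.99e-06), and for Snord17 -0.07 and -0.58 (difference 0.51 ± 0.093, adjusted p = 0.000926). Snora73a, at -0.31 and -0.71, differed by 0.41 ± 0.069 (adjusted p = 0.000453). For Snora57, at 0.13 and -1.18, the difference of 1.31 ± 0.43 (adjusted p = 0.0449) was lost in 11 of 12 fits without 1 library. The added counts of Snora73a and Snora73b differed by 0.50, and those of Snora74a and AC121821.1 by 0.59. The WT libraries enter this contrast too, so it is not independent of the comparisons with WT.

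The number of calls depended on single libraries, and it was 0 in a fit on libraries summed per genotype that also changed the model. Without WT replicate 1, 3 members were called in Tet2KO, 8 in Id1KO and 5 in dKO against WT; without Tet2KO replicate 3 there were 3 in Tet2KO, without Id1KO replicate 2 there were 8 in Id1KO, and without WT replicate 3 there were 6 in dKO. With the 3 libraries of a genotype summed to 1, the fit had 1 additive term for Tet2 and 1 for Id1. The Tet2 term stands for both Tet2KO against WT and dKO against Id1KO, and the Id1 term for Id1KO against WT and dKO against Tet2KO. For either term 0 members were called, with 1 under an unadjusted p of 0.05 in edgeR for Tet2 and 11 for Id1. The spread in this fit comes from departures of the 4 sums from additive labels, which include the interaction. Its 0 calls therefore cannot be put down to the unit of replication. The calls of Snora73a, Snora73b and Snora74a against WT held in all 12 fits that left out 1 library, as did those of Snord17 and Snord15b in Id1KO and of Snora78 in Id1KO and dKO. Fits without 1 library took the adjusted p in edgeR, in Id1KO against WT, to 0.165 for Snord22 (without Id1KO replicate 2), 0.119 for Snora44 (without Id1KO replicate 3), 0.21 for Snora7a (without WT replicate 2), 0.124 for Snora43 and 0.0868 for Snora17 (both without WT replicate 1). In dKO against WT it rose to 0.102 for Snord15b (without dKO replicate 1), 0.149 for Snora44 (without dKO replicate 2), 0.137 for Snora21 (without dKO replicate 3) and 0.0534 for Snora61 (without WT replicate 1), and in dKO against Id1KO to 0.105 for Snord15b (without Id1KO replicate 2).

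In Id1KO against WT, host genes changed less than the snoRNA genes inside them. A host on the same strand was annotated for 134 of the 141 genes and for 18 of the 23 tested, in 17 hosts that were themselves tested. For the 3 members with more than 1 host, only 1 was used, the noncoding Snhg host or otherwise the first listed, which left 15 hosts. Of those not used, Rcc1, the second host of Snora73a and Snora73b at 115 CPM, was at -0.15 in Tet2KO, 0.07 in Id1KO and 0.05 in dKO against WT, and Gm28285 was at 3.77 CPM. The median log2 change in Id1KO was -0.66 over these 18 members and -0.05 over the 15 hosts, and 17 of 18 members lay below their host, beside 9 of 18 in Tet2KO and 15 of 18 in dKO. Snhg3, the noncoding host of Snora73a and Snora73b, differed by 0.07 ± 0.058 (adjusted p = 0.449 in edgeR) in Id1KO, where the members were at -0.71 and -0.64. In Tet2KO Snhg3 fell by 0.26 on the log2 scale (adjusted p = 0.00256) and in dKO by 0.25 (adjusted p = 0.00732). Snx5, the sorting nexin gene that holds Snord17, was lower in dKO against WT (log2 -0.59, adjusted p = 3.32e-11 in edgeR), where Snord17 was at -0.14 (adjusted p = 0.138). In Id1KO the pair was at -0.50 for Snx5 and -0.58 for Snord17. Rps3, the host of both U15 copies, was at -0.03 in Id1KO (adjusted p = 0.565), and Rpl32 and Rpl10, the hosts of Snora7a and Snora70, were at -0.09 and -0.08 in dKO against Tet2KO. The whole sequences of Snora7a and Snora70 are also part of these hosts, which were at 1100 and 1430 CPM. Added to the genes that share their sequence, their counts differed by -0.09 and -0.08 in dKO against Tet2KO. In Tet2KO against WT 8 of the 15 hosts were lower and 0 higher, in Id1KO 5 were lower and 1 higher, and in dKO 13 were lower and 0 higher, beside the backgrounds given above. Across the 18 members the Pearson correlation of member and host change was 0.30, 0.21 and 0.23 in these comparisons, a description over genes that share libraries and, in part, hosts. Of the 23 tested members, 17 have a stretch of at least 100 nt, at 95% identity or more, in another annotated transcript. For 13 of them that transcript belongs to a host, so that member and host counts are not independent, and for the other 4 only to a gene that is no host.

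**Figure D5:**
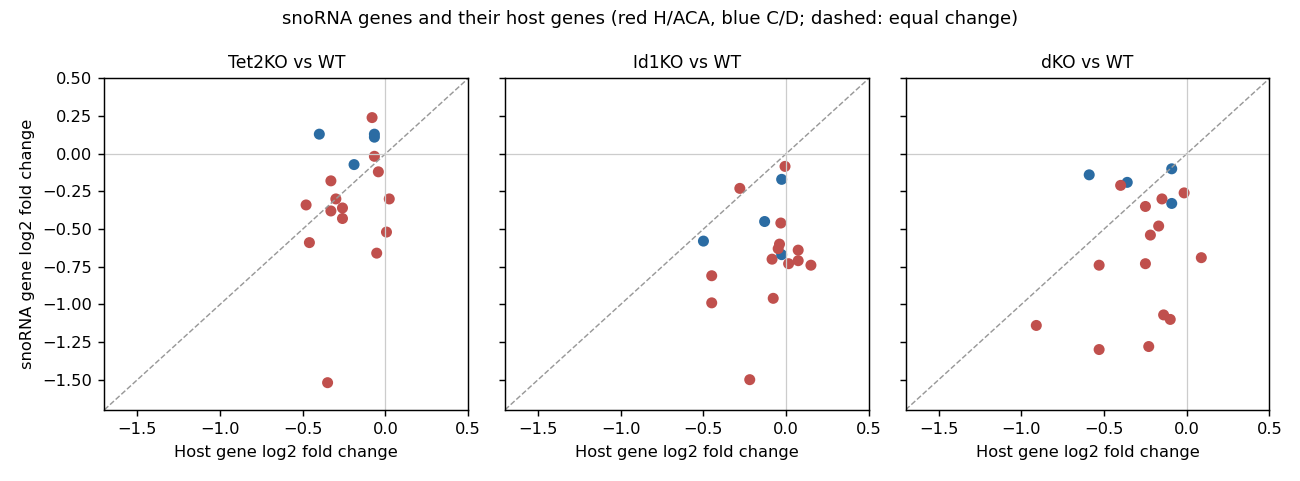
Log2 fold change of each host gene (horizontal) and of the snoRNA gene inside it (vertical) for the 18 tested members with a host, in 3 comparisons with WT; the dashed line marks equal change. In Id1KO 17 of 18 points lie below the line, with hosts at -0.50 to 0.15 on the log2 scale.

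Genes for the proteins that bind snoRNAs were mostly lower in Tet2KO than in WT. In dKO against WT 3 of the 8 core genes were lower, beside 8.97% of all genes tested. The lowest log2 change there was -0.12 in each class of core genes. The C/D core proteins Fbl, Nop56, Nop58 and Snu13 were lower in Tet2KO against WT in 4 of 4 cases (16.2% of all genes tested) and higher in dKO against Tet2KO in 4 of 4 (13.1% of all genes tested), as in Nop56 at -0.28 ± 0.025 and 0.16 ± 0.026 (adjusted p = 6.54e-08 and 0.000127 in edgeR). Of the H/ACA core proteins Dkc1, Nhp2, Nop10 and Gar1, 3 of 4 were lower in Tet2KO against WT, with Dkc1 at -0.17 ± 0.033 (adjusted p = 0.000547). In Id1KO against WT 0 of these 8 genes were lower and 1, Nop58, was higher (log2 0.11), beside 7.26% of all genes tested called higher. Of 13 assembly and transport factors 6 were lower in Tet2KO against WT, among them Rpap3 (log2 -0.28 ± 0.046, adjusted p = 0.000106), and 0 were called in Id1KO or dKO against WT. Of 26 genes of RNA polymerase I and early ribosome biogenesis, 21 were lower in Tet2KO against WT and 0 higher, with a median log2 change of -0.15. Rrp9, a protein of the U3 snoRNA particle, was at -0.39 ± 0.057 (adjusted p = 2.83e-05) and Npm1, the abundant nucleolar protein nucleophosmin, at -0.15 ± 0.031 (adjusted p = 0.00113). In dKO against Tet2KO 17 of the 26 were higher and 1 lower, beside 13.1% called higher over all genes. In Id1KO against WT 0 were lower and 5 higher, beside 7.26%, the comparison in which 13 snoRNA genes were lower. The groups called lower in Tet2KO moved beside the erythroid markers, of which 10 of 11 were lower in Tet2KO against WT and 10 of 11 higher in dKO against Tet2KO; the part of these cells in the result was not tested.

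The values of other short genes differed by length and by comparison. Outside the members, 37 genes of 60 to under 160 nt were tested, and 14 were lower in Id1KO against WT (37.8%, median log2 -0.44), 8 in dKO (21.6%, median -0.44) and 3 in Tet2KO (8.11%, median -0.03), the last under the 16.2% of all genes tested. Of these 37 genes, 27 are themselves annotated as snoRNA or Scarna genes, among them 12 of the 14 lower in Id1KO, 6 of the 8 in dKO and 1 of the 3 in Tet2KO. The remaining 10 were lower in 2 cases in each of the 3 comparisons. Of 74 genes of 160 to under 300 nt, 24 were lower in Tet2KO (32.4%, median -0.42), 14 in Id1KO (18.9%) and 19 in dKO (25.7%). In this length range 18 are annotated as snoRNA or Scarna genes, and of the remaining 56 genes 14 were lower in Tet2KO (25%), 9 in Id1KO (16.1%) and 9 in dKO (16.1%). Several of the 18 are copies of the snoRNA U3 with the same values in every library, so they are not separate measurements. Among 13932 genes of 600 nt or more the shares called lower were 16.2%, 7.62% and 8.8%. The difference between the members and these short genes was not tested.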

How the data were processed

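Total RNA was purified with a silica column kit and depleted of ribosomal RNA before stranded libraries were made, per the labels' protocols; such columns and size selection recover short RNA poorly, and their part in the counts was not tested. The authors' deposited table holds estimated counts per gene; STAR, RSEM and mm10 are named in the submitters' processing notes, without versions. The annotation and strand setting are not given in the sources used here, but all 55450 gene identifiers and symbols matched GENCODE M21, which gave positions, hosts and sequences. In 46 member genes an estimated count was not whole, so reads had been divided between genes.

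Counts were rounded and fitted over the whole table in R 4.3.3 with edgeR 4.0.16 (quasi-likelihood test, TMM scaling, filterByExpr with a minimum count of 10, 1 mean per genotype over 12 libraries), with Benjamini-Hochberg adjustment over 14346 genes and a threshold of 0.05. CPM uses the TMM-scaled library size. SE is the log2 change divided by the root of F. Sequence sharing was found with BLAST 2.17.0. In simulated counts with 200 genes changed by a fold of 2 in Tet2KO against WT, edgeR recovered 182 among 14346 genes, with 13 false calls. Alternatives were other scalings and filters, DESeq2 1.42.0, a threshold of 0.01, a replicate block, libraries left out or summed, and, chosen after seeing the data, Snora73a and Snora73b as 1 gene, members added to genes that share their sequence, and the H/ACA sum without both copies.

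Members named are the 5 most abundant per length of each class and, in each comparison, up to 3 called members with the highest and 3 with the lowest change whose libraries do not overlap; the other called members are named to complete counts of calls, after their values were seen. The members, the gene lists and the cell type markers were chosen with earlier results of these data known. Of the 14 assembly factors listed, Nopchap1 was not matched in the table. Mature neutrophil markers (6, of which 5 were tested) summed to 60.4 to 65.8 CPM (WT), 79.9 to 84.4 (Tet2KO), 63.3 to 67.4 (Id1KO) and 80.9 to 90.2 (dKO). Against WT, 2 of the 5 were lower and 2 higher in Tet2KO, 0 were called in Id1KO, and 0 were lower and 3 higher in dKO. Over all genes tested, 32.8%, 15% and 19.2% were called in either direction. The part of these cells in the results was not tested. B cell markers (3, of which 2 were tested) summed to 1.32 to 3.99 CPM, and stroma and endothelium markers (4, of which 1, Pecam1, was tested) to 87.3 to 119 CPM. Libraries of different genotypes with the same replicate number did not deviate together (correlations of -0.13 to 0.13 over 18 pairs, 2 of them over 0.1), so the numbers were not used as pairs.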

Additional observations from a re-analysis of the deposited data

Results flagged for a closer look

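For 5 genes the change with Id1 loss differed between the Tet2KO and WT backgrounds by the interaction test in edgeR (Benjamini-Hochberg adjusted p under 0.05), and each is listed for that reason. The differences on the log2 scale were 1.75 for Snora74a, 1.31 for Snora57, 0.65 for Snora73b, 0.51 for Snord17 and 0.41 for Snora73a. All 5 genes were lower in Id1KO than in WT, and 1 of them, Snora73a, was called lower in dKO than in Tet2KO. The value of Snora74a was 0.59 once its counts were added to those of AC121821.1, which holds the same sequence. The call of Snora57 was lost in 11 of 12 fits that left out 1 library. Snora73a and Snora73b are near copies, and their counts added together differed by 0.50. No group had enough libraries for a check of single outlying samples, and every value column of the table was used.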

How the results depend on the processing

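Of 273 values of the counts of calls and class sums under alternatives, 253 stayed within 1.5 times the count or 1 SD of the sum, and 20 moved. Of 930 values for 40 single calls, 803 kept direction and threshold, 126 kept direction but lost the threshold, and 1 turned. The last was a term of the fit on summed libraries, described below, that covers more than its own comparison. With DESeq2 the calls numbered 6 in Id1KO against WT, 5 in dKO against WT and 3 in dKO against Tet2KO; DESeq2 gave no adjusted p for many members with few counts. At a threshold of 0.01 the comparisons with WT gave 7 (Id1KO) and 5 (dKO). With libraries summed per genotype and 1 additive term per label, 0 members were called for either term (the interaction cannot be fitted from 4 sums). Of all genes, 232 were called for Tet2 and 7 for Id1. The Tet2 term of Snora73b was -0.034. It stands for Tet2KO against WT and dKO against Id1KO together, so it is no value of dKO against Id1KO alone. Without the most abundant member the H/ACA sum differed by -0.50 in dKO against WT, -0.04 in dKO against Tet2KO, 0.24 in dKO against Id1KO and 0.71 in the interaction, and the C/D sum by -0.41 in dKO against Tet2KO and 0.12 in the interaction. Leaving out 1 library gave 3 to 5 calls (Tet2KO against WT), 8 to 13 (Id1KO against WT), 5 to 9 (dKO against WT), 4 to 6 (dKO against Tet2KO), 2 to 4 (dKO against Id1KO) and 4 to 5 (interaction). With the replicate number as a block the calls were 4, 11, 9, 5, 3 and 4 in the same order. Calls below about 20 counts a library are limited by depth, and counts of 0 say only that a gene was not detectable here.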

Other observations

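The snoRNA genes listed at 0 include a whole cluster. All 17 Snord116-like genes of 94 nt within Snhg14, the imprinted noncoding host known for its expression in brain, were at 0 in all 12 libraries. Of 5 members inside Snhg12, 4 had counts and 2 were tested (Snora44 and Snora61), and of 4 members inside Gas5, a noncoding gene known as a host of C/D snoRNAs, 2 had any count and 0 were tested. Among members not tested, Snord21 in Rpl5 had the most counts, 83.63 over 12 libraries with at most 12.8 in 1 library.

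Of 1365 further genes annotated as snoRNA under other symbols, 136 had any count and 38 were tested. In Id1KO against WT 14 of the 38 were lower (36.8%, beside 7.77% of all genes tested) and 0 higher, with a median log2 change of -0.40. In dKO against WT 13 were lower (34.2%, beside 8.97%) and 3 higher. In Tet2KO against WT 7 were lower (18.4%, near the 16.2% of all genes) and 3 higher. Some of these genes are not separate measurements. The Rnu3b1, Rnu3b2, Rnu3b3 and Rnu3b4 genes of 215 nt, copies of U3 called lower in Tet2KO and in dKO, had the same values in all 12 libraries. Likewise the Rnu3b2 and Rnu3b4 genes of 216 nt, called higher in dKO, shared all their values. U3 is the C/D-type RNA that starts the cutting of the ribosomal RNA precursor. Its 10 gene copies summed to 569 ± 22.1 CPM for WT, 455 ± 31.6 for Tet2KO, 467 ± 32.5 for Id1KO and 502 ± 37.3 for dKO (SD, n = 3). Single copies differed from that order: 1 Rnu3a gene of 214 nt was 54.3, 51.6 and 41.9 CPM in dKO and 14.3 to 38.1 CPM in the other 9 libraries, while the Rnu3a gene of 213 nt was 64.4 to 106 CPM throughout. Reads of such copies are divided between them by the authors' program, so the sum is the safer value. Of the 5 tested Scarna genes, which guide changes of spliceosomal RNA in Cajal bodies, Scarna6 and Scarna10 were lower than WT in all 3 comparisons in edgeR. Scarna6 differed by -0.72 in Tet2KO, -0.60 in Id1KO and -0.51 in dKO on the log2 scale (adjusted p at most 6.69e-05). Scarna10 was 360 ± 19.9 CPM for WT, 334 ± 1.88 for Tet2KO, 307 ± 11.2 for Id1KO and 275 ± 4.5 for dKO (SD, n = 3).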
